A study of Mus musculus with 15 samples.

Results

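The 8 genes described here encode neurotrophins, receptors for neurotrophins and receptors for the GDNF family of ligands. They were chosen by gene symbol (Bdnf, Ntf3, Ntrk2, Ntrk3, Ngfr, Ret, Gfra1 and Gfra2) from the 24346 symbols of the table of FPKM values (fragments scaled to transcript length and to the size of the library). Because FPKM is per length, levels of different genes can be set side by side. The 15 libraries came from brain cells of C57BL/6 mice, 3 per group. D0 were astrocytes, D4, D8 and D16 were cells 4, 8 and 16 days into chemical induction in culture, labelled as induced neurons, and PN were primary neurons. The chemicals, the age of the animals and the purity of the cultures are not given in the sources used here, and no genetic change is named for any group.

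Neurotrophins are secreted proteins that signal through 2 kinds of receptor, the Trk receptor tyrosine kinases and the p75 receptor encoded by Ngfr. The BDNF protein binds TrkB, the product of Ntrk2, and the product of Ntf3 binds mainly TrkC, the product of Ntrk3. Ligands of the GDNF family bind coreceptors anchored to the membrane by a lipid (Gfra1 for GDNF, Gfra2 for neurturin), which then engage the receptor tyrosine kinase Ret. In the forebrain, TrkB and TrkC are found on most neurons, and astrocytes carry mainly a TrkB form without the kinase. Ret and p75 are best known from peripheral sensory and autonomic neurons, motor neurons, basal forebrain neurons and neural crest cells.

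Summed over all genes, a library held 548309 to 787080 FPKM, with 11861 to 12907 genes at 1 FPKM or more. The steps between low FPKM values put the relative depth of the libraries between 0.68 and 1.96 times the median library, with PN at 1.64 to 1.96. The absolute depth is unknown. Within groups, Pearson's correlation of log2(FPKM + 1) between libraries was 0.966 to 0.987.

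Astrocyte markers were high in D0: all 8 listed genes reached 1 FPKM in every D0 library, and they summed to 712 to 1645 FPKM. The sums were 455 to 531 FPKM at D4, 104 to 121 FPKM at D8, 55.4 to 68.2 FPKM at D16 and 148 to 271 FPKM in PN. Gfap made up 79.8% of the mean sum at D4 and 49.9% in D0, and averaged 398 FPKM at D4, against 560 FPKM in D0 (not called, adjusted p = 0.60). Other astrocyte markers were already lower at D4: Aqp4 averaged 1.66 FPKM at D4 and 83.2 FPKM in D0, and Slc1a3 6.33 FPKM at D4 and 189 FPKM in D0. The 8 neuron markers summed to 281 to 392 FPKM in D0, 496 to 580 FPKM at D4, 710 to 857 FPKM at D8, 931 to 968 FPKM at D16 and 3098 to 4267 FPKM in PN. Stmn2 made up 86.9% of the mean sum in D0 and was lower at D4 (149 FPKM at D4, against 304 FPKM in D0, -1.02 ± 0.20, adjusted p = 0.00051), while the other 7 markers together averaged 45.7 FPKM in D0, 382 FPKM at D4, 596 FPKM at D8 and 731 FPKM at D16. Snap25 averaged 62.9 FPKM at D4 and 0.183 FPKM in D0. At D16 and in PN all 8 neuron markers reached 1 FPKM in every library. D0 also held mural cell and fibroblast markers, 4 of 7 at 1 FPKM or more in each library, with sums of 821, 3973 and 1484 FPKM in replicates 1, 2 and 3 and 1 of the 7 listed at 0. The contractile gene Acta2 made up 93.2% of the mean sum, and the other 6 markers together averaged 143 FPKM. Ependyma markers summed to 106 to 214 FPKM in D0, with 3 of 5 at 1 FPKM or more in each library. In the oligodendrocyte lineage and Schwann cell lists, Olig2 (72.4 FPKM) and Pmp22 (140 FPKM) led in D0. The rest of these lists averaged 4.81 and 1.77 FPKM together. Microglia and endothelium markers summed to at most 18.9 and 4.03 FPKM in D0. D0 replicate 2 had the lowest astrocyte sum of the group (712 FPKM), the highest Acta2 (3761 FPKM), and the lowest value of 5 of the 8 genes described here. In bulk samples such as these, fewer cells of a type and less RNA per cell cannot be told apart, and the part of other cell types in the results below was not tested.

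A change is a difference between group means of log2(FPKM + 1) with its standard error (SE), and this scale compresses the changes of weakly expressed genes. The term called stands for a Benjamini-Hochberg adjusted p below 0.05 over all 13983 genes tested and a change of at least 1 in either direction. All 8 members passed the filter on low values. Outside the induced cells, Ret reached 1 FPKM only in D0 replicate 3 and PN replicate 2, so it passed through the induced cells. The counts below include Ret, and its calls are given as descriptions. Against D0, 2 of the 8 were called at D4 (Ret higher, Ntrk2 lower), where 27.8% of all tested genes were called, 13.6% higher and 14.2% lower. At D8 against D0, 3 of the 8 were called (Ret and Ntrk3 higher, Ntrk2 lower), beside 32.4% of all genes, 15.5% higher and 16.9% lower. The same 3 were called at D16 against D0, beside 35.3% of all genes, 16.6% higher and 18.7% lower. In PN against D0, 5 of the 8 were called (Ntf3, Ntrk3 and Gfra2 higher, Ngfr and Gfra1 lower), beside 41% of all genes, 17.1% higher and 23.9% lower. At D4, D8 and D16 against D0 the members' shares are near the background.

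Set against PN, the induced cells differed in most of the members. At D4 against PN all 8 were called, 3 higher and 5 lower, beside 37.9% of all tested genes, 22% higher and 16% lower. At D8 against PN all 8 were called as well, 3 higher and 5 lower, beside 36% of all genes, 20.5% higher and 15.5% lower. At D16 against PN 6 of the 8 were called, 3 higher and 3 lower, beside 34.6% of all genes, 19.6% higher and 15% lower. On each day Ngfr, Ret and Gfra1 were higher in the induced cells than in PN, and Ntf3, Ntrk2 and Ntrk3 were lower. These comparisons share the PN libraries.

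Between days of induction limma called none of the 8. At an unadjusted p below 0.05, 0 of the 8 passed at D8 against D4, 1 (Gfra2) at D16 against D8, and 2 (Ntrk3 and Gfra2) at D16 against D4. D8 against D4 called 2.01% of all genes, 0.501% higher and 1.51% lower. D16 against D8 called 0.0286%, 0.0215% higher and 0.00715% lower, and D16 against D4 called 7.2%, 2.94% higher and 4.26% lower. The median change of all tested genes was -0.119 in PN against D0, -0.010 with equal totals and 0.003 after quantile normalization, and no called change of a member turned its sign under either scaling.

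**Figure D1:**
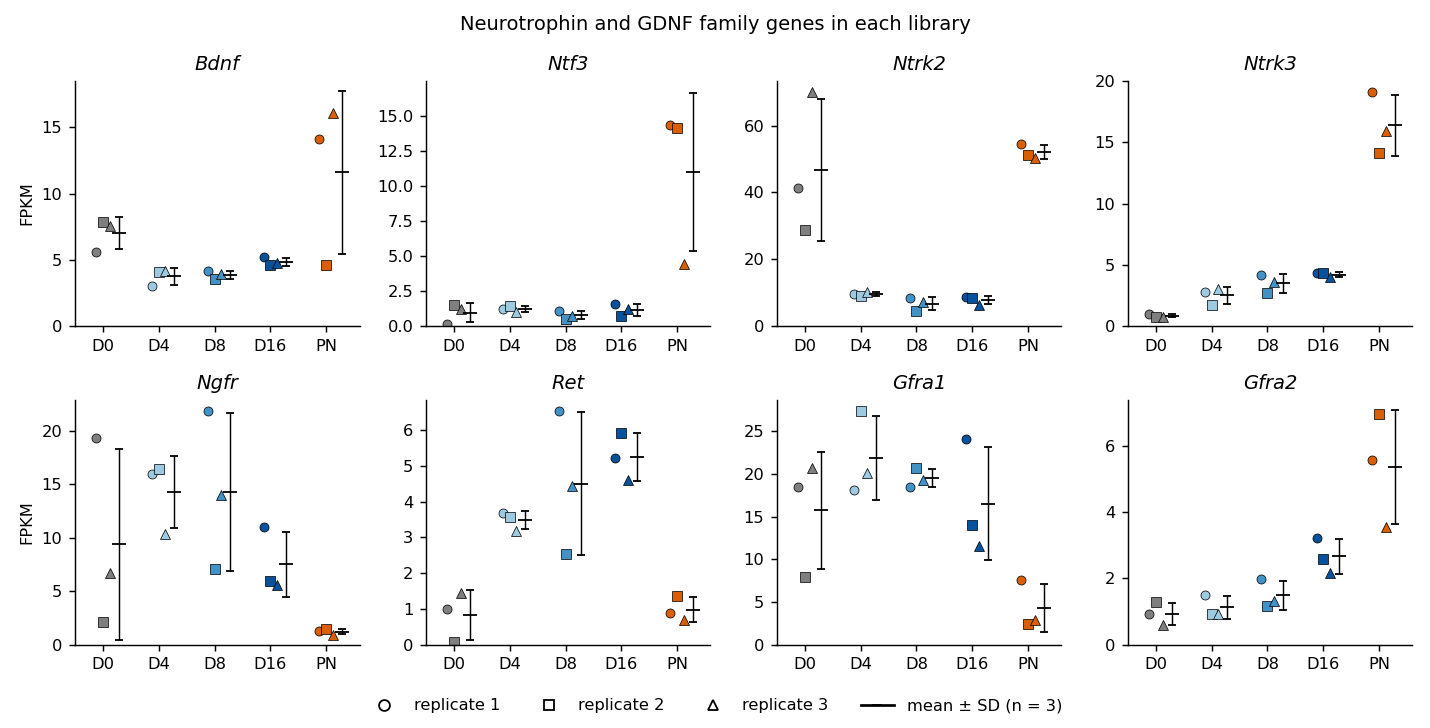
FPKM of the 8 genes (vertical axes, each starting at 0) in the 5 groups (horizontal axes), with 1 symbol per replicate and the mean ± SD of 3 libraries beside them. Ntrk2 stood at 10.2 FPKM or less in all 9 libraries of induced cells and at 28.8 FPKM or more in all D0 and PN libraries. Ret showed the opposite arrangement, at 2.54 FPKM or more in the induced cells and 1.45 FPKM or less in D0 and PN.

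Of the ligands, Bdnf was lower in the induced cells than in PN at D4 and D8. BDNF is a neurotrophin that neurons release with activity. In D0 Bdnf stood at 5.61, 7.86 and 7.58 FPKM in replicates 1, 2 and 3. It stood at 3.03, 4.07 and 4.15 FPKM at D4, 4.12, 3.52 and 3.95 FPKM at D8, and 5.19, 4.62 and 4.74 FPKM at D16. In PN it stood at 14.1, 4.61 and 16.1 FPKM. All 9 induced libraries lay below all 3 D0 libraries, and PN replicate 2 lay just below the lowest D16 library while both other PN libraries were above every other library.

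The change of Bdnf against D0 was -0.75 ± 0.31 at D4 (adjusted p = 0.049), -0.71 ± 0.31 at D8 (adjusted p = 0.057) and -0.44 ± 0.31 at D16 (adjusted p = 0.22), none of which was called. Against PN it was -1.26 ± 0.31 at D4 (adjusted p = 0.002), -1.22 ± 0.31 at D8 (adjusted p = 0.0027) and -0.95 ± 0.31 at D16 (adjusted p = 0.013, not called). PN was not called against D0 (0.51 ± 0.31, adjusted p = 0.16). These calls turned on single PN libraries and, for D16 against PN, also on the pseudocount and the scaling. With all libraries, D16 against PN was called with a pseudocount of 0.1 FPKM (-1.06, adjusted p = 0.016). It was also called with equal totals (-1.065, adjusted p = 0.012) and after quantile normalization (-1.10, adjusted p = 0.0047). Without PN replicate 2, PN was called against D0 (1.02, adjusted p = 0.0002) and D16 against PN (-1.46, adjusted p = 1.1e-05). Without PN replicate 3, the calls of D4 and D8 against PN were lost (-0.96 and -0.93). In order of group means Bdnf ran from D4 over D8, D16 and D0 to PN, and no neighbouring groups in that order were called.

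The Bdnf gene lies on chromosome 2 (GRCm38, start 109674700, end 109727007, plus strand) and has 7 annotated transcript starts in the RefSeq promoter table (GRCm38.p6), which a value per gene does not separate. The sequence around the start at 109692436 is shown because it holds the only match among these 7 windows to the 5-letter core of a cAMP response element, the motif bound by CREB, through which depolarisation and cAMP are known to raise transcription of Bdnf in rat and mouse neurons. The window chr2:109692186-109692485 is 300 bases long on the plus strand, the last 50 of them after the start, with the 5 letters of the match in capitals, the first of them 35 bases before the start.
Bdnf: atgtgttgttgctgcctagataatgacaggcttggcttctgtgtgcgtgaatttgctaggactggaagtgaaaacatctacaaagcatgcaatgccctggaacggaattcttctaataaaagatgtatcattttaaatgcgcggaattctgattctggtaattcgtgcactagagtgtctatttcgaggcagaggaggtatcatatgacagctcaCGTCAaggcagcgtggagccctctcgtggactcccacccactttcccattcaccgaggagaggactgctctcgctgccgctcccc
The search was for CGTCA and its reverse complement TGACG, which 20.8% of all 32851 promoter windows of 300 bases hold, and for the full element TGACGTCA, which 1.8% hold and none of the 12 windows of the members does. The core lies inside the full one. Of the 8 genes, 5 had windows in the table (Bdnf 7, Ntf3 2, and Ntrk2, Ngfr and Gfra1 1 each), and no window but the one printed held the core. A match of letters is a description of the sequence and not a measured binding site.

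The second ligand, Ntf3, was higher in PN than in every other group. Its product is a neurotrophin with roles in the survival of proprioceptive sensory neurons. Ntf3 stood at 0.164, 1.502 and 1.19 FPKM in D0, 1.23, 1.44 and 1.02 FPKM at D4, 1.08, 0.523 and 0.682 FPKM at D8, and 1.59, 0.731 and 1.18 FPKM at D16. PN libraries held 14.4, 14.2 and 4.45 FPKM, all above the 12 other libraries, with replicate 3 the lowest. D0 and the induced days overlapped throughout.

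The change of Ntf3 in PN against D0 was 2.55 ± 0.36 (adjusted p = 1.3e-05), or 11.6 times the D0 mean. At D16 against PN it was -2.34 ± 0.36 (adjusted p = 4.1e-05), at D8 -2.63 ± 0.36 (adjusted p = 1.2e-05) and at D4 -2.28 ± 0.36 (adjusted p = 4.6e-05). Against D0 the induced days were not called, with changes of 0.26, -0.09 and 0.21 at D4, D8 and D16 (all ± 0.36, adjusted p = 0.56, 0.85 and 0.63). Within a library the ratio of Bdnf to Ntf3 was 5.23 to 34.2 in D0, 2.46 to 4.07 at D4, 3.82 to 6.72 at D8, 3.25 to 6.33 at D16 and 0.326 to 3.62 in PN.

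Of the Trk receptors, Ntrk2 was lower in the induced cells than in both D0 and PN. TrkB, its product, transmits the BDNF signal in neurons. Ntrk2 stood at 41.3, 28.8 and 70.1 FPKM in D0. The induced cells held 9.68, 8.91 and 10.2 FPKM at D4, 8.32, 4.58 and 7.12 FPKM at D8, and 8.56, 8.41 and 6.27 FPKM at D16. PN held 54.6, 51.3 and 50.4 FPKM. No induced library reached any D0 or PN library, and the 3 PN values lay inside the range of D0.

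Ntrk2 fell at D4 against D0 by 2.08 ± 0.26 on the log2 scale (adjusted p = 8e-06), to 0.205 times the D0 mean. It was lower by a similar size at D8 (-2.58 ± 0.26, adjusted p = 6.4e-07) and D16 (-2.37 ± 0.26, adjusted p = 1.3e-06). Against PN the change was -2.33 ± 0.26 at D4, -2.82 ± 0.26 at D8 and -2.61 ± 0.26 at D16 (adjusted p = 1.4e-06, 2e-07 and 4.9e-07), and the D16 mean was 0.149 times the PN mean. PN against D0 was not called (0.25 ± 0.26, adjusted p = 0.42). Between days the changes were -0.50 ± 0.26 for D8 against D4 (adjusted p = 0.41) and 0.21 ± 0.26 for D16 against D8 (adjusted p = 0.76). Among the astrocyte markers, Aqp4 and Slc1a3 were also called lower at D4 than in D0 (-4.85 ± 0.38 and -4.67 ± 0.39, adjusted p = 9.8e-08 and 2.1e-07), and Gfap was not (-0.41 ± 0.62). In PN, where Ntrk2 was at 50.4 to 54.6 FPKM, Slc1a3 averaged 80.3 FPKM and Aqp4 6.53 FPKM. The part of astrocyte content in the values of Ntrk2 was not tested.

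Ntrk2 (chromosome 13, start 58806569, end 59133970, plus strand, GRCm38) has 7 annotated coding transcripts in GENCODE M21. Full-length TrkB and the forms without the kinase are added up in 1 value per gene, so the levels in D0 and PN do not show that the same form was present. The other members lie on chromosome 6 (Ntf3, start 126101412, end 126166910, and Ret, start 118151745, end 118197718), chromosome 7 (Ntrk3, start 78175959, end 78738012), chromosome 11 (Ngfr, start 95568818, end 95587735), chromosome 19 (Gfra1, start 58235604, end 58455909) and chromosome 14 (Gfra2, start 70890120, end 70979838). Gfra2 is on the plus strand and the other 5 on the minus strand. None of the 10 annotated genes that overlap a member was among the symbols of the table, and whether the counting used strand is not given in the sources used here.

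Ntrk3 rose with induction and was highest in PN. Its product TrkC transmits the signal of the Ntf3 ligand. Ntrk3 stood at 0.975, 0.733 and 0.775 FPKM in D0, 2.79, 1.69 and 3.03 FPKM at D4, 4.19, 2.66 and 3.62 FPKM at D8, and 4.34, 4.30 and 3.97 FPKM at D16. In PN it stood at 19.1, 14.2 and 15.95 FPKM. All induced libraries lay above all D0 libraries and below all PN libraries. D8 overlapped with D4 and with D16, and D4 did not overlap with D16.

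Against D0 the change of Ntrk3 was 0.92 ± 0.19 at D4 (adjusted p = 0.0007, under the minimum change and so not called), 1.28 ± 0.19 at D8 (adjusted p = 2.9e-05) and 1.51 ± 0.19 at D16 (adjusted p = 5e-06). The D16 mean was 5.08 times that of D0. In PN the change against D0 was 3.24 ± 0.19 (adjusted p = 9e-10), or 19.8 times the D0 mean. Against PN the induced cells were lower by -2.32 ± 0.19 at D4, -1.96 ± 0.19 at D8 and -1.73 ± 0.19 at D16 (adjusted p = 5e-08, 3.3e-07 and 1.3e-06). D16 against D4 gave 0.59 ± 0.19 (adjusted p = 0.039), and D8 against D4 and D16 against D8 gave 0.36 and 0.23 (adjusted p = 0.40 and 0.62), none of them called. The order of means was thus D0, D4, D8, D16 and PN, and of its neighbours only D16 and PN were called apart.

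The p75 receptor gene Ngfr was lowest in PN. p75 binds all neurotrophins and their precursors and acts with or without Trk receptors. Ngfr stood at 19.3, 2.08 and 6.67 FPKM in D0, 15.9, 16.4 and 10.4 FPKM at D4, 21.8, 7.02 and 14.0 FPKM at D8, and 10.98, 5.94 and 5.59 FPKM at D16. PN libraries held 1.22, 1.45 and 0.928 FPKM. D0 overlapped every induced day, with replicate 1 high and replicate 2 low, and all PN libraries lay below all others.

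Induced cells had more Ngfr than PN, by 2.77 ± 0.51 at D4, 2.68 ± 0.51 at D8 and 1.90 ± 0.51 at D16 (adjusted p = 0.00024, 0.00034 and 0.0048). The D16 mean was 6.25 times the PN mean. PN was lower than D0 (-1.84 ± 0.51, adjusted p = 0.0054), a value of -1.15 without D0 replicate 1, where the call was kept. Against D0 none of the induced days was called: the changes were 0.93 at D4, 0.84 at D8 and 0.06 at D16 (all ± 0.51, adjusted p = 0.14, 0.17 and 0.92). Without D0 replicate 1, D4 and D8 were called higher (1.62 and 1.53, adjusted p = 0.0061 and 0.0078). D16 against D4 gave -0.87 ± 0.51 (adjusted p = 0.26).

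Of the GDNF family receptors, Ret was higher in the induced cells than in both D0 and PN. Its product is the receptor tyrosine kinase shared by the GDNF family, active in enteric, sympathetic, motor and dopamine neurons. Ret stood at 0.993, 0.0594 and 1.45 FPKM in D0, 3.68, 3.56 and 3.19 FPKM at D4, 6.54, 2.54 and 4.44 FPKM at D8, and 5.22, 5.93 and 4.596 FPKM at D16. In PN it stood at 0.871, 1.36 and 0.685 FPKM. Every induced library was above every D0 and every PN library, and PN lay within the range of D0. Since Ret passed the filter on low values through the induced cells, its changes and calls are descriptions of these libraries.

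The change of Ret against D0 was 1.37 ± 0.29 at D4 (adjusted p = 0.0011), 1.61 ± 0.29 at D8 (adjusted p = 0.00025) and 1.85 ± 0.29 at D16 (adjusted p = 5.9e-05), and the D16 mean was 6.30 times that of D0. With a pseudocount of 0.1 FPKM in place of 1 the same changes were 2.47, 2.74 and 3.04. Against PN the changes were 1.20 ± 0.29 at D4, 1.43 ± 0.29 at D8 and 1.67 ± 0.29 at D16 (adjusted p = 0.0022, 0.00058 and 0.00016). Under quantile normalization the call of D4 against PN was lost (0.86, adjusted p = 0.0088). PN against D0 was not called (0.18 ± 0.29, adjusted p = 0.62). D8 against D4 and D16 against D8 gave 0.23 and 0.24 (both ± 0.29, adjusted p = 0.83 and 0.75).

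Gfra1, the coreceptor that binds GDNF, was lower in PN than in every other group, and no induced day was called against D0. It stood at 18.5, 7.92 and 20.7 FPKM in D0, 18.1, 27.4 and 20.1 FPKM at D4, 18.5, 20.7 and 19.3 FPKM at D8, and 24.1, 14.0 and 11.5 FPKM at D16. PN libraries held 7.59, 2.46 and 2.88 FPKM, below all 12 other libraries. D0 overlapped every induced day, with replicate 2 the low library of its group. In the induced cells Gfra1 had the highest mean of the 8 genes on each day, and in PN it ranked 6.

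The change of Gfra1 against PN was 2.21 ± 0.37 at D4, 2.08 ± 0.37 at D8 and 1.78 ± 0.37 at D16 (adjusted p = 8.4e-05, 0.00016 and 0.00061), and PN was lower than D0 by -1.68 ± 0.37 (adjusted p = 0.00085). Against D0 the changes were 0.53 at D4, 0.40 at D8 and 0.10 at D16 (all ± 0.37, adjusted p = 0.24, 0.37 and 0.82). None of these was called.

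Gfra2, the coreceptor that binds neurturin, was highest in PN. It stood at 0.928, 1.28 and 0.603 FPKM in D0, 1.51, 0.918 and 0.938 FPKM at D4, 1.98, 1.16 and 1.33 FPKM at D8, and 3.23, 2.60 and 2.17 FPKM at D16. In PN it stood at 5.59, 6.98 and 3.55 FPKM. D16 lay above all libraries of D0, D4 and D8 and below all of PN, while D0, D4 and D8 overlapped.

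PN was called above D0 for Gfra2 (1.70 ± 0.22, adjusted p = 6.8e-06), and D4 and D8 below PN (-1.56 and -1.33, both ± 0.22, adjusted p = 2e-05 and 9.8e-05). D16 was under the minimum change in both directions, at 0.93 ± 0.22 against D0 (adjusted p = 0.0021) and -0.77 ± 0.22 against PN (adjusted p = 0.0074). The first of these was called without D0 replicate 2 (1.05), without D16 replicate 3 (1.03) and with a pseudocount of 0.1 FPKM (1.45). D16 against D4 gave 0.79 ± 0.22 (adjusted p = 0.024).

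**Figure D2:**
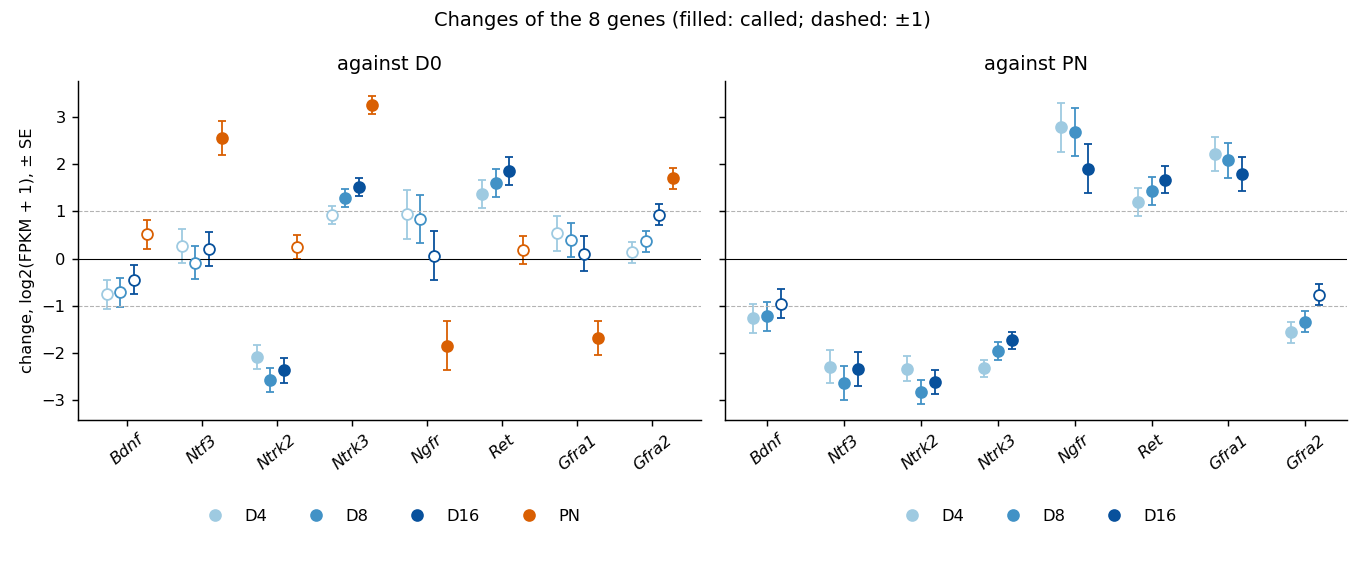
Change of each gene on the log2(FPKM + 1) scale ± SE (vertical axis) against D0 (left panel) and against PN (right panel), with filled symbols for called changes and dashed lines at a change of 1 in either direction. Against PN, Ngfr, Ret and Gfra1 lie above 0 and the other 5 genes below it on all 3 days, and against D0 Ntrk2 lies between -2.08 and -2.58 in the induced cells.

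The members thus stood in a different order in each kind of cell. In D0 Ntrk2 made up 56.7% of the summed FPKM of the 8 genes and Gfra1 19.1%. At D16 Gfra1 made up 33.1% and Ntrk2 15.5%. In PN Ntrk2 made up 50.6%, Ntrk3 15.9%, Bdnf 11.3% and Ntf3 10.7%, with Ngfr at 1.2% and Ret at 0.9%. Ntrk2 at D16 was above 41.9% of all tested genes by group mean, against 86.2% in PN.

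Ratios within a library do not depend on its scaling. Ntrk2 over Ngfr was 2.14 to 13.8 in D0, 0.542 to 0.982 at D4, 0.381 to 0.652 at D8, 0.780 to 1.42 at D16 and 35.3 to 54.4 in PN. Ngfr was thus the more abundant of the pair in all D4 and D8 libraries, and Ntrk2 in all D0 and PN libraries. Ntrk2 over Ntrk3 was 39.3 to 90.4 in D0, 3.36 to 5.27 at D4, 1.72 to 1.98 at D8, 1.58 to 1.97 at D16 and 2.86 to 3.62 in PN. Gfra1 over Gfra2 was 6.21 to 34.4 in D0, 11.95 to 29.9 at D4, 9.34 to 17.9 at D8, 5.31 to 7.45 at D16 and 0.352 to 1.36 in PN. Gfra1 exceeded Ret in all 15 libraries, by 14.3 to 134 times in D0, 4.91 to 7.70 times at D4, 2.83 to 8.14 times at D8, 2.36 to 4.62 times at D16 and 1.80 to 8.71 times in PN. The highest of these, in D0 replicate 2, rests on a Ret value of 0.0594 FPKM. These ratios are given as descriptions, with no test.

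**Figure D3:**
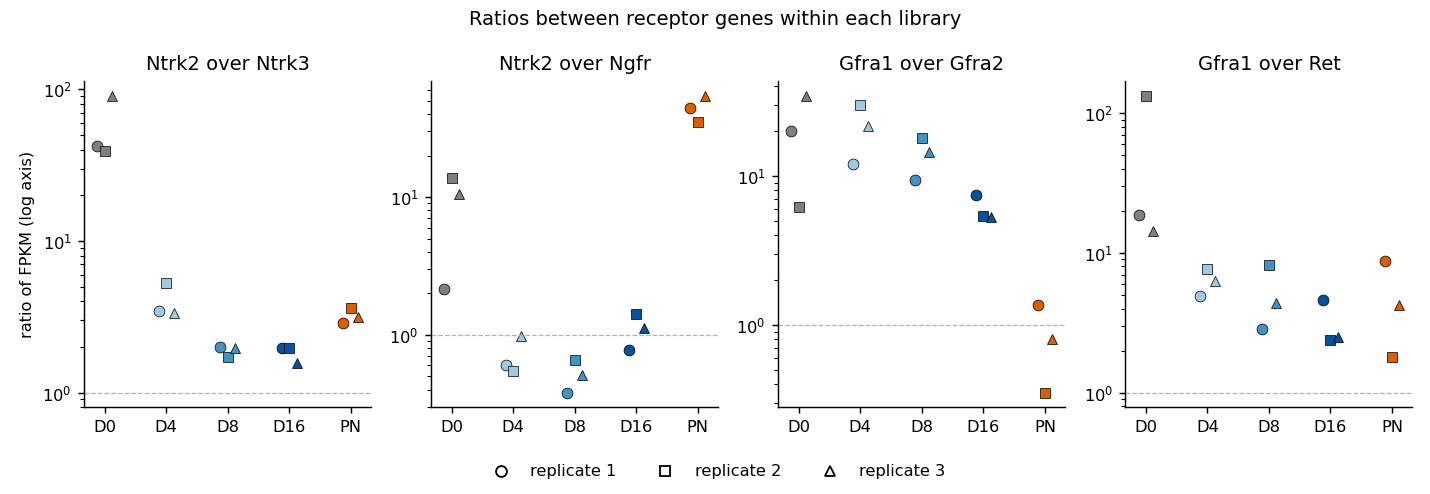
Ratio of FPKM between pairs of receptor genes within each library (vertical axis, log scale) in the 5 groups, with 1 symbol per replicate and a dashed line at a ratio of 1. Ntrk2 over Ngfr lies between 0.381 and 1.42 in the induced cells and between 35.3 and 54.4 in PN.

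Libraries of a group also differed across several members at once. D8 replicate 1 had the highest value of the group for 7 of the 8 genes and replicate 2 the lowest for the same 7, Gfra1 being the exception in both. Replicate 2 had the higher relative depth (1.63 times the median library) and the highest FPKM total of all libraries (787080). D16 replicate 1 had the highest value of its group for 7 of the 8 genes, all but Ret.

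The other ligands of both families were measured too, 7 in all, of which 6 were tested (all but Pspn). At D16 against D0, 1 was higher and 3 lower, beside 16.6% of all tested genes higher and 18.7% lower. The median change was -0.88, against -0.01 over all tested genes. At D16 against PN, 3 were higher and none lower (median change 1.005, against 0.058 over all tested genes), beside 19.6% of all genes higher and 15% lower. Nrtn, which encodes neurturin, was higher at D16 than in both D0 and PN. It stood at 4.17, 10.52 and 12.1 FPKM in D0, 13.9, 17.1 and 20.8 FPKM at D4, 21.8, 17.8 and 23.2 FPKM at D8, 18.7, 22.3 and 26.5 FPKM at D16, and 2.03, 2.87 and 2.53 FPKM in PN. The change of Nrtn was 1.34 ± 0.28 at D16 against D0 (adjusted p = 0.00066) and 2.75 ± 0.28 at D16 against PN (adjusted p = 6.8e-07).

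Gdnf was low throughout, at 1.74, 0.605 and 1.70 FPKM in D0, 0.327, 0.347 and 0.439 FPKM at D16, and 0.181, 0.0206 and a listed 0 in PN. Its change was -0.74 ± 0.195 at D16 against D0 (adjusted p = 0.004, not called) and -1.10 ± 0.195 in PN against D0 (adjusted p = 0.00013). Gdf15, whose product signals through the Ret coreceptor Gfral, averaged 14.9 ± 4.80 FPKM at D16, against 46.7 ± 17.9 FPKM in D0 (SD, n = 3 each; change -1.55 ± 0.29, adjusted p = 0.00032). Artn, which encodes artemin, averaged 0.423 ± 0.26 FPKM at D16 and 1.86 ± 0.43 FPKM in D0 (change -1.01 ± 0.19, adjusted p = 0.00024). Ntf5, which encodes a second TrkB ligand, averaged 0.801 FPKM at D16 and 0.145 FPKM in D0 (change 0.63 ± 0.21, adjusted p = 0.014, not called). Pspn, which encodes persephin, was listed at 0 in 8 of the 15 libraries and was never above 1.5 FPKM.

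Of 10 other receptors and coreceptors 8 were tested. At D16 against D0, 3 were higher and 1 lower (median change 0.27, against -0.01 over all tested genes), beside 16.6% of all genes higher and 18.7% lower. At D16 against PN, 1 was higher and 1 lower, which is near the shares over all genes (19.6% higher and 15% lower). In all, 2 were called against D0 without D0 replicate 2, and 4 against PN without PN replicate 3.

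Gfra4, which encodes the coreceptor of persephin, was lower at D16 than in PN, with 3.34, 2.24 and 2.64 FPKM at D16, against 11.9, 21.3 and 15.5 FPKM in PN (-2.18 ± 0.24, adjusted p = 1.7e-06). Ncam1, an adhesion gene whose product can bind GDNF, averaged 67.9 ± 21.8 FPKM at D16 and 32.1 ± 5.46 FPKM in D0 (1.02 ± 0.26, adjusted p = 0.0031). Sorl1, a sorting receptor, averaged 7.51 ± 1.69 FPKM at D16 and 18.1 ± 9.92 FPKM in D0 (-1.04 ± 0.34, adjusted p = 0.015). Sorcs3 was listed at 0 in all D0 libraries and stood at 2.19, 1.46 and 1.67 FPKM at D16 (1.46 ± 0.15, adjusted p = 9.6e-07). Sort1, the sortilin gene whose product binds proneurotrophins with p75, averaged 21.8 FPKM at D16 and 30.9 FPKM in D0 (-0.47 ± 0.15, adjusted p = 0.013, not called). Sorcs1 and Sorcs2 were not called at D16 against D0 (-0.25 and -0.59, adjusted p = 0.33 and 0.09). The 2 genes not tested were Gfra3, at 0.917 FPKM or less in every library, and Gfral, which was listed at 0 in all but 1 PN library (0.0236 FPKM).

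**Figure D4:**
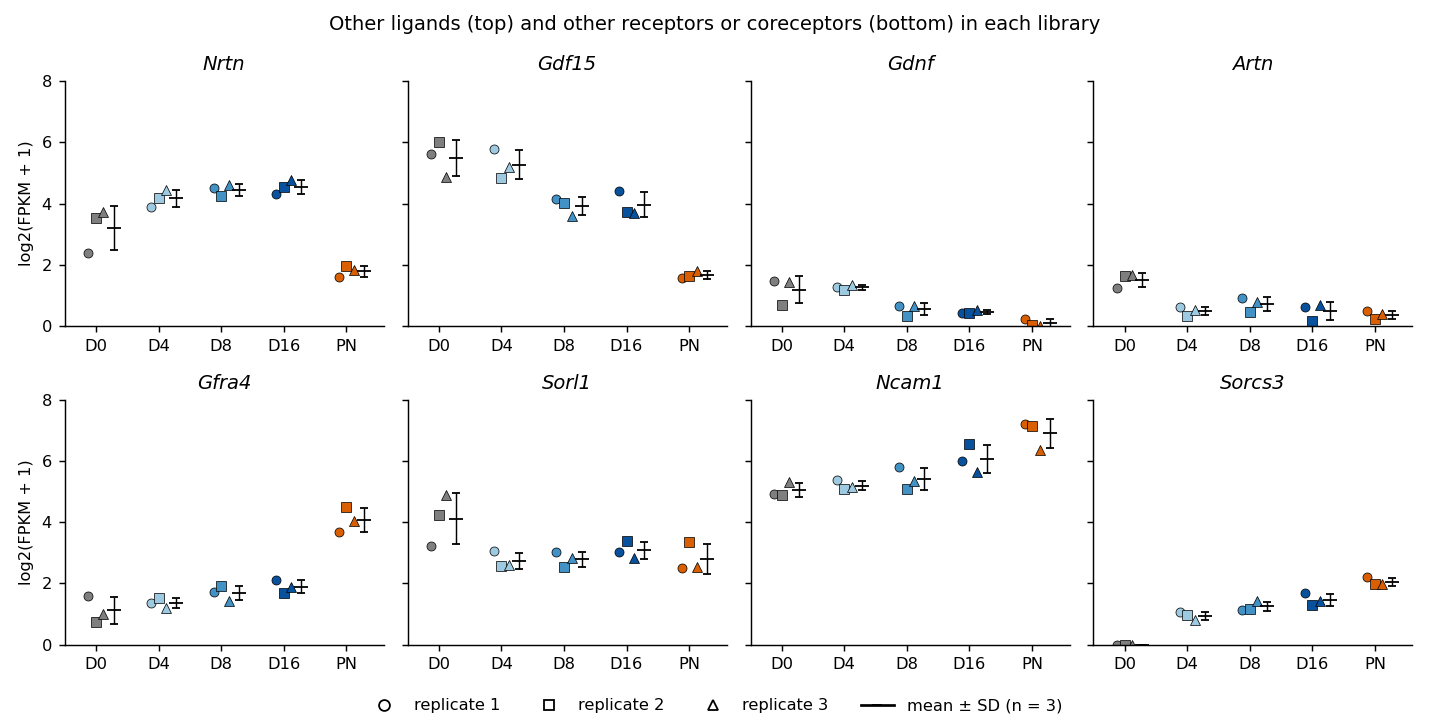
Levels of 4 other ligands (top) and 4 other receptors or coreceptors (bottom) as log2(FPKM + 1) on the vertical axes in the 5 groups, with 1 symbol per replicate and the mean ± SD of 3 libraries. Nrtn lies between 18.7 and 26.5 FPKM at D16 and between 2.03 and 2.87 FPKM in PN, and Gfra4 is highest in PN.

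Genes around the receptors did not share 1 direction. In the lists of cleavage enzymes, ERK and CREB response genes, other ligands and other receptors, 1 tested gene each reached 1 FPKM in no D0 or PN library. Of 10 tested genes for enzymes that cleave or are linked to cleaving proneurotrophins, 2 were higher and 6 lower at D16 against D0 (median change -1.42, against -0.01 over all tested genes, of which 16.6% were higher and 18.7% lower). Among the lower ones was the convertase Pcsk6 (4.99 FPKM at D16, against 109 FPKM in D0, -4.10 ± 0.29, adjusted p = 1.6e-08). The matrix protease gene Mmp14 was lower too (35.0 FPKM at D16, against 118 FPKM in D0). Plat, the tissue plasminogen activator, was higher at D16 than in PN (157 FPKM at D16, against 15.9 FPKM in PN, 3.07 ± 0.48, adjusted p = 5.1e-05).

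Of 22 tested adaptor genes of Trk and Ret, 4 were higher and 3 lower at D16 against D0 (median change 0.34), which is near the shares over all genes (16.6% higher and 18.7% lower). Shc1, the widely expressed adaptor, averaged 10.8 FPKM at D16 and 62.4 FPKM in D0 (-2.37 ± 0.25, adjusted p = 1.1e-06). Shc2, a form found mainly in neurons, averaged 19.2 FPKM at D16 and 0.388 FPKM in D0 (3.86 ± 0.13, adjusted p = 1.4e-11). In PN, Shc1 averaged 2.14 FPKM and Shc2 13.4 FPKM. Dok5, which encodes a docking protein of Trk and Ret, rose to 64.0 FPKM at D16, against 11.2 FPKM in D0 (2.42 ± 0.24, adjusted p = 5.7e-07), and Dok4 was lower at D16 than in PN (8.95 FPKM at D16, against 77.5 FPKM in PN, -2.996 ± 0.27, adjusted p = 1.7e-07).

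Of 17 partners of p75, 6 were higher and 1 (Ripk2, named after its value was seen) lower at D16 against D0, beside 16.6% of all tested genes higher and 18.7% lower. At D16 against PN, 6 were higher and 5 lower, beside 19.6% and 15% of all genes. Lingo1, Rtn4r and Rtn4rl2, which encode parts or relatives of the receptor complex for myelin inhibitors, were higher at D16 than in D0. Lingo1 averaged 11.8 FPKM at D16 and 3.58 FPKM in D0 (1.57 ± 0.30, adjusted p = 0.00033), Rtn4r 6.83 FPKM at D16 and 0.860 FPKM in D0, and Rtn4rl2 15.4 FPKM at D16 and 0.182 FPKM in D0. Bex1 and Tnfrsf19 were higher as well. Against PN the direction was the opposite for Lingo1 and Rtn4r, which were lower at D16. Rtn4rl2 also averaged less at D16 than in PN (39.7 FPKM in PN). The related Rtn4rl1 was lower at D16 than in PN, and its mean at D16 (3.885 FPKM) was below that of D0 too (7.74 FPKM). Lingo1 averaged 11.8 FPKM at D16 and 68.0 FPKM in PN (-2.41 ± 0.30, adjusted p = 6e-06). Nradd and Irak1 were higher (10.1 FPKM at D16 and 1.40 FPKM in PN for Nradd, 2.19 ± 0.24, adjusted p = 1.3e-06).

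Of 24 genes that respond to ERK or CREB signalling, 8 were higher and 6 lower at D16 against D0 (median change -0.24, against -0.01 over all tested genes). Of all tested genes 16.6% were higher and 18.7% lower there. Vgf averaged 2302 FPKM at D16, against 58.6 FPKM in D0 (5.33 ± 0.48, adjusted p = 1.7e-07), and was already at 3029 FPKM at D4 and 3106 FPKM at D8. Egr1 averaged 156 FPKM at D16, against 15.8 FPKM in D0 (3.28 ± 0.37, adjusted p = 1.7e-06). Dusp4 and Nptx2 were higher as well, while Dusp5 (7.80 FPKM at D16 and 42.1 FPKM in D0, -2.31 ± 0.31, adjusted p = 1.2e-05) was lower. Against PN, 11 of the 24 were higher and 2 lower at D16 (median change 0.86, against 0.06 over all tested genes), beside 19.6% and 15% of all genes. Bdnf, whose transcription also responds to CREB, is not on this list and was not called at D16 against D0 or against PN. The activity of CREB was not measured.

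Of 18 other trophic factors, 2 were higher and 9 lower at D16 against D0, where 16.6% of all genes were higher and 18.7% lower. Cntf, a cytokine gene of astrocytes, averaged 0.564 FPKM at D16 and 53.5 FPKM in D0 (-4.99 ± 0.37, adjusted p = 2.7e-08), and Fgf1 0.0788 FPKM at D16 and 17.5 FPKM in D0 (-4.10 ± 0.31). Igf2 and Tgfb1 were the higher ones, with Igf2 at 80.6 FPKM at D16 and 4.79 FPKM in D0 (4.45 ± 0.65, adjusted p = 2.9e-05) and Tgfb1 at 97.1 FPKM at D16 and 11.5 FPKM in D0 (2.999 ± 0.49, adjusted p = 8.1e-05).

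Of 15 transcription factors known from sensory and autonomic neurons, where Trk receptors and Ret are abundant, 13 passed the filter on low values. For 8 of the 13, no D0 or PN library reached 1 FPKM, so they passed through the induced cells and had to differ, and no count over this list is given. Hand2, Pou4f1 and Isl1 are among these 8, so their levels are given as descriptions, with no test. Hand2 averaged 11.97 FPKM at D16 and 0.273 FPKM in D0, and was listed at 0 in PN. Pou4f1 averaged 5.41 FPKM at D16, 0.0240 FPKM in D0 and 0.0988 FPKM in PN. Klf7 was lower at D16 than in PN (3.28 FPKM at D16, against 26.9 FPKM in PN, -2.72 ± 0.23, adjusted p = 1.1e-07). Of 7 sensory and autonomic markers, 4 reached 1 FPKM in each D16 library and 1 or 2 in each PN library. Their sums were 2.85 to 5.94 FPKM in D0, 976 to 4990 FPKM at D4, 665 to 1855 FPKM at D8, 64.6 to 281 FPKM at D16 and 4.47 to 5.67 FPKM in PN. Calca, which encodes the neuropeptide CGRP, made up 99.7% of the mean sum at D4 and 92.8% at D16, and it was lower at D16 than at D4 (166 FPKM at D16, against 2791 FPKM at D4, -4.06 ± 0.65, adjusted p = 0.00077). Without Calca the other 6 markers together averaged 7.39 FPKM at D4, 9.36 FPKM at D8 and 12.9 FPKM at D16. Isl1, 1 of them, averaged 3.26 FPKM at D16 and 0.631 FPKM at D4. The part of such cells in the levels of Ret and Ngfr was not tested.

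**Figure D5:**
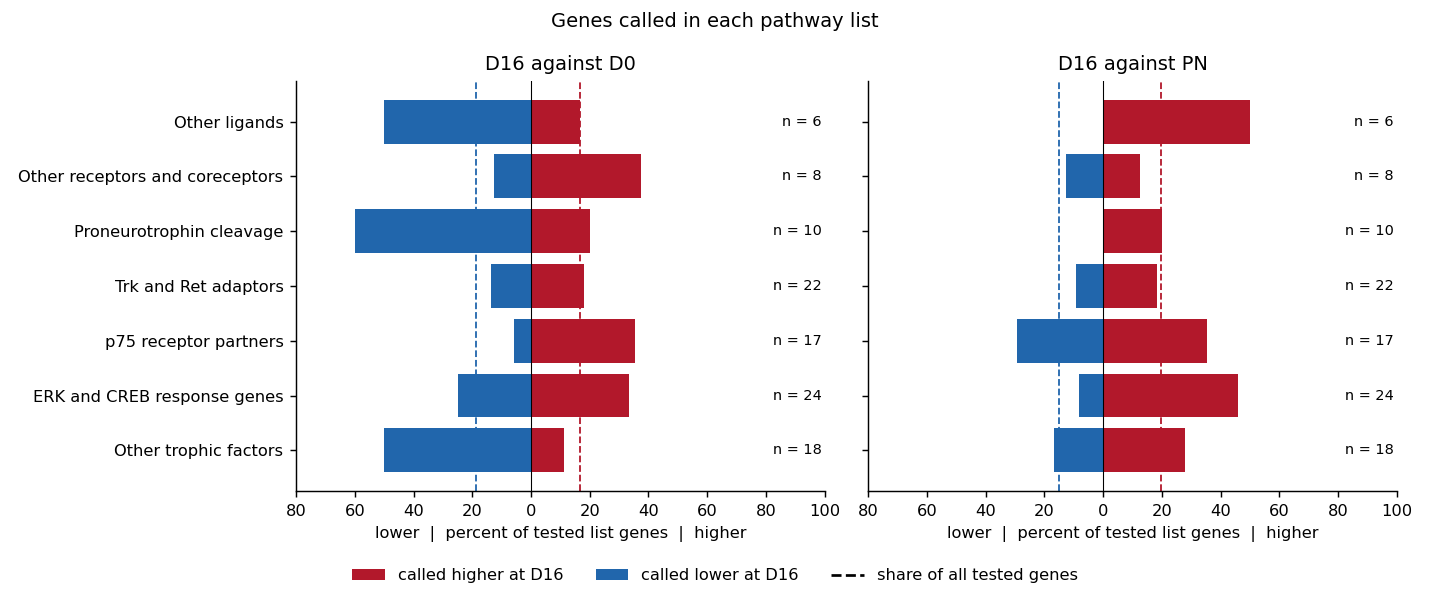
Percent of the tested genes of 7 pathway lists (rows) called higher (right, red) or lower (left, blue) at D16 against D0 and at D16 against PN, with dashed lines at the share of all tested genes. Of the 6 other ligands 3 are lower than in D0, beside 18.7% of all tested genes. Of the 24 ERK and CREB response genes 11 are higher than in PN, beside 19.6% of all tested genes.

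For each member the tested genes with the most similar profile were found by the root mean square difference of log2(FPKM + 1) over the 15 libraries, after subtracting each gene's mean. Bdnf was nearest to Herpud1 (0.24), Aars (0.26) and Sfpq (0.27). Ntf3 was nearest to Pla2g4e (0.28), Lrrc4c (0.32) and Gpr22 (0.32), all highest in PN. Ntrk2 was nearest to Slc35f1 (0.25), Angpt1 (0.25) and Grik5 (0.32). Each of the 3 was low in the induced cells, with Slc35f1 averaging 36.5 FPKM in D0, 6.90 to 7.20 FPKM at D4 and D16 and 36.0 FPKM in PN. Genes near Ntrk3 were Fbxl16 (0.19) and Brsk1 (0.20), whose means also stood in the order D0, D4, D8, D16 and PN. Ngfr had the most distant neighbours, Sox7 (0.43), Mocos (0.44) and Ppl (0.50). Ret was nearest to Tgfa (0.27), Gpr165 (0.28) and Il17rd (0.28), and Il17rd averaged 1.30 FPKM in D0, 7.31 FPKM at D16 and 1.32 FPKM in PN. Gfra1 was nearest to Blvrb (0.30), Pls1 (0.39) and Net1 (0.39). Genes near Gfra2 were Pcnxl2 (0.18) and Cbfa2t3 (0.21). Within the 8 members the closest pair was Ntrk3 and Gfra2 (0.56), then Ngfr and Gfra1 (0.60).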

How the data were processed

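The authors deposited 1 table of FPKM values per gene symbol for 15 libraries of total RNA sequenced in pairs of 150 bases, per the labels. The genome build, mm10 (GRCm38), comes from the submitters' processing notes. The aligner, quantifier and annotation are not given in the sources used here. Values were taken as log2(FPKM + 1), and the tested genes were those with 1 FPKM or more in 3 or more libraries. limma 3.58.1 in R 4.3.3 fitted the 15 libraries as 5 group means with a variance trend, and the Benjamini-Hochberg adjustment covered the 13983 genes of each comparison. The procedure was tested on simulated data. Since separate cultures are not stated in the labels, the p-values reflect the scatter among these libraries alone, and that may be technical.

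The members and gene lists were chosen with earlier results of these data known. All members are described. Of each list, up to 5 called genes with the largest changes in a comparison are eligible to be named, besides the other ligands and receptors, and for each member the 3 genes with the most similar profile. Some genes under this rule are not reported here by name, though list counts include them. Alias symbols (Pace4, Bex3) were not counted again. Ripk2 was named after its values were seen. Positions come from GENCODE M21 (GRCm38). Samples with the same replicate number correlated in their deviations from the group means at 0.329 to 0.454 between D8 and D4, so these numbers link samples there, and in no other comparison in all 3 pairs above 0.1. Tables and figures used Python 3.11.15, pandas 2.3.3 and matplotlib 3.10.9. Alternatives are given in the closing section.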

Additional observations from a re-analysis of the deposited data

How the results depend on the processing

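Of 1212 values of the 8 genes under other settings, 28 changed their call: 5 calls were lost and 23 gained. No called value changed sign, and 34 values not called in either setting did, at most to 0.611 in size. With no minimum on the change, 4 members were called at D4 against D0 (2 with it) and 2 at D16 against D4 (0 with it), and with a pseudocount of 0.1 FPKM 1 was called at D16 against D4. A filter at 5 FPKM left 6 of the 8 members tested and 3 called in PN against D0 (5 otherwise), since Ntf3 and Gfra2 were not tested. A replicate block was fitted with 1 effect per replicate number across all 5 groups. It changed no call of a member (0 of 8 called at D8 against D4 with and without it). Only D8 and D4 were linked by number, so this block cannot decide whether their pairing matters. No paired fit of D8 and D4 alone was run. After the data were seen, leaving out pairs of libraries was added: D16 replicate 2 with PN replicate 3 gave 6 members called at D16 against PN, and D0 replicate 2 with PN replicate 2 gave 7 (6 with all libraries). The median change of all genes at D8 against PN was 0.084, and -0.122 with equal totals (log2). The other settings, namely no filter, an equal total per library, quantile normalization, a fit of the compared groups and each library left out in turn, kept the members called in both directions together within 1.5 times. At D4 against D0, 3 were called without D0 replicate 1 (Ngfr gained) and 3 without D4 replicate 2 (Ntrk3 gained), beside 2 with all libraries, so the number called higher was 2 in place of 1. Of 1232 list counts under other settings 114 moved by more than that. At D16 these included the other receptors against D0 (2 called without D0 replicate 2, 4 with it) and against PN (4 called without PN replicate 3, 2 with it), and the other trophic factors against PN (5 called without PN replicate 2, 8 with it). The unknown absolute depth limits values under 1 FPKM.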
